A study of Mus musculus with 8 samples.

Results

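The MHC class I presentation genes H2-K1, H2-D1, B2m, Tap1, Tap2, Tapbp, Nlrc5 and Erap1 were followed in DC-restricted progenitors (CDPs) of obese and control mice. They were chosen by name, as the rows of the deposited gene table whose Ensembl identifier carries one of these 8 symbols in GENCODE vM21, and 8 of 8 were found among 16119 genes. All mice were males labelled C57BL/6, C57BL/6J in the study's methods. The HFD group had been fed for 16 weeks with 60 kcal% fat and is labelled DIO, and the CF group was its age-matched control on 10 kcal% fat. The study's methods give the mice of both diets as 16 weeks old when purchased. CDPs were sorted from BM as Flt3+ CD115+ cells without lineage markers, with intermediate c-Kit and low Sca-1, about 50000 per replicate, with 4 replicates per diet, and their RNA was sequenced as amplified whole transcriptome. The sources used here do not say whether a replicate came from 1 mouse or from pooled mice. The p values therefore judge a diet difference against the spread between these samples, which may differ from that between single mice. In such bulk RNA, fewer cells of a type cannot be told apart from less RNA per cell.

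MHC class I molecules display short peptides from the cell's own proteins to CD8+ T cells, and nearly all nucleated cells carry them. H2-K1 and H2-D1 encode the classical heavy chains of this strain, which reach the surface mainly with the light chain β2-microglobulin, the product of B2m. The peptides are made by the proteasome and pumped into the ER by the transporter of Tap1 and Tap2, tapasin (Tapbp) holds empty class I molecules at that transporter, and the ER aminopeptidase of Erap1 trims the peptides. Nlrc5 encodes the transactivator that drives class I genes, much as Ciita drives class II genes. In DCs the same route also serves cross-presentation of material taken up from outside.

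H2-K1, H2-D1, Tap1, Tap2 and Tapbp, 5 of the 8, lie on chromosome 17 of GRCm38 within the MHC, B2m on chromosome 2, Nlrc5 on chromosome 8 and Erap1 on chromosome 13. Tap1 (ENSMUSG00000037321) spans chr17:34187553-34197225 on the plus strand, and Psmb9, a proteasome subunit gene, runs away from it on the minus strand from 34187764 to 34181987. The RefSeq start sites of this pair are 226 bases apart, and their annotated exons overlap by 212 bases. The 250 bases before the RefSeq start sites (GRCm38.p6) are printed for the heavy chain genes, B2m and Tap1. The promoters of the heavy chain genes and B2m hold the boxes for which class I genes are known. Tap1 was, of the 8, the gene with the largest difference between the diets. Capitals mark matches on either strand to the interferon-stimulated response element (ISRE) core (GAAA, NN, then GAAA), the CCAAT box CCAAT, the X2 box core TGACGC and the NF-kB consensus.
H2-K1, chr17:34000348-34000597, minus strand: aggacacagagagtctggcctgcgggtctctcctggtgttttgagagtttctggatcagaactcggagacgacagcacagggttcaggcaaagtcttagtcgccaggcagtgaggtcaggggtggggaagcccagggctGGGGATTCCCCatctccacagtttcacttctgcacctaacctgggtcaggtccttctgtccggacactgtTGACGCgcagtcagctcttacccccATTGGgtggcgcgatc
H2-D1, chr17:35262844-35263093, plus strand: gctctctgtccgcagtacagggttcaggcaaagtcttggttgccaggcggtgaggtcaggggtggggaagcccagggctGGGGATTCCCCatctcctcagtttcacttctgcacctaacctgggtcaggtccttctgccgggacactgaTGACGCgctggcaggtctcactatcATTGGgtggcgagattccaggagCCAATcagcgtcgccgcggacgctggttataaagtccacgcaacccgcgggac
B2m, chr2:122147437-122147686, plus strand: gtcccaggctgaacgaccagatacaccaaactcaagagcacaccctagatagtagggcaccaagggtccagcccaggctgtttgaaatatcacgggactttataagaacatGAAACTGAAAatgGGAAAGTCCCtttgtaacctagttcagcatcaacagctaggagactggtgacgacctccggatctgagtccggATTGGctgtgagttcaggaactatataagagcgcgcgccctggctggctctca
Tap1, chr17:34187306-34187555, plus strand: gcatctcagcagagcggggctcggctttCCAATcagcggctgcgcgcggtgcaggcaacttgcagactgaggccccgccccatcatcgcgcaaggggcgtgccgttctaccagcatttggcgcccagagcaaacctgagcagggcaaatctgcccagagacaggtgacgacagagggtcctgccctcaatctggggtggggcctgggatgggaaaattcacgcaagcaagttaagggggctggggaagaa

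The heavy chain windows were alike, with a longest shared run of 47 bases, and both held the NF-kB motif, the X2 core and an inverted CCAAT box in the same order. B2m held the ISRE core, from 139 to 130 bases before its start, the NF-kB motif and an inverted CCAAT box. In the Tap1 window only a CCAAT box matched, at its far end and so near the start of Psmb9. RefSeq sequences were at hand for 6 of the 8 genes. Of these 6, a CCAAT box was found in 5, the NF-kB motif in 3, the X2 core in 2 and the ISRE core in 1. Over all 32851 promoter windows of the table, the shares with a match were 33.8%, 7.25%, 6.12% and 2.98%. A match describes the letters and does not show that a factor binds there.

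Total counts ranged from 28203651 to 38969160 in HFD and from 32575696 to 48409689 in CF. Values are CPM, counts scaled to a common library size with the TMM factors of edgeR, and 15837 genes passed its filter on low counts. Of the receptors by which CDPs were sorted, Kit had 34.2 to 53.6 CPM, Csf1r (CD115) 79.4 to 133 CPM and Flt3 88.8 to 378 CPM over the 8 libraries, with the lowest Flt3 in HFD replicate 1. HFD replicate 1 stood apart. Its 8 neutrophil markers summed to 18770 CPM, against 884 to 3342 CPM in the other HFD replicates and 1800 to 6119 CPM in CF, and its 4 erythroid markers to 206 CPM, against 36.4 to 58.0 CPM elsewhere. Protein-coding genes took 38.9 to 41.9% of the counts in HFD and 28.3, 34.1, 33.9 and 42.0% in CF replicates 1 to 4, and the TMM factors were 0.80, 0.88 and 0.90 in CF replicates 1 to 3 and above 1 in the other libraries.

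None of the 8 class I presentation genes was called between HFD and CF at an adjusted p below 0.05 in edgeR, where 0.423% of all genes tested were called. With an unadjusted p below 0.05, edgeR found 1 of the 8, Tap1, lower in HFD and none higher, against 8.56% of all genes in either direction, 5.34% lower and 3.22% higher. DESeq2 also called Tap1 and no other member, where it called 3.58% of all genes. The log2 fold change was below 0 in 8 of 8, against 40.3% of all genes, with a median of -0.083 (all genes 0.055). With library size alone as the scale only 2 of 8 were below 0 and none had an unadjusted p below 0.05 (Tap1 at -0.41, edgeR adjusted p = 0.37), while the median of all genes moved to 0.25, and 8 of 8 stayed below that median in both scalings. With protein-coding genes alone, 8 of 8 were below 0, with a median of -0.12. With single libraries left out, the lowest count was 6 of 8 below 0, without HFD replicate 2 and again without CF replicate 2. Without HFD replicate 1, 7 of 8 were below 0, all but Erap1, and 1 had an unadjusted p below 0.05 in edgeR. B2m was then at -0.046, Tap2 at -0.033 and Tapbp at -0.025 on the log2 scale, and H2-K1 at -0.088, as with this library (-0.089).

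**Figure D1:**
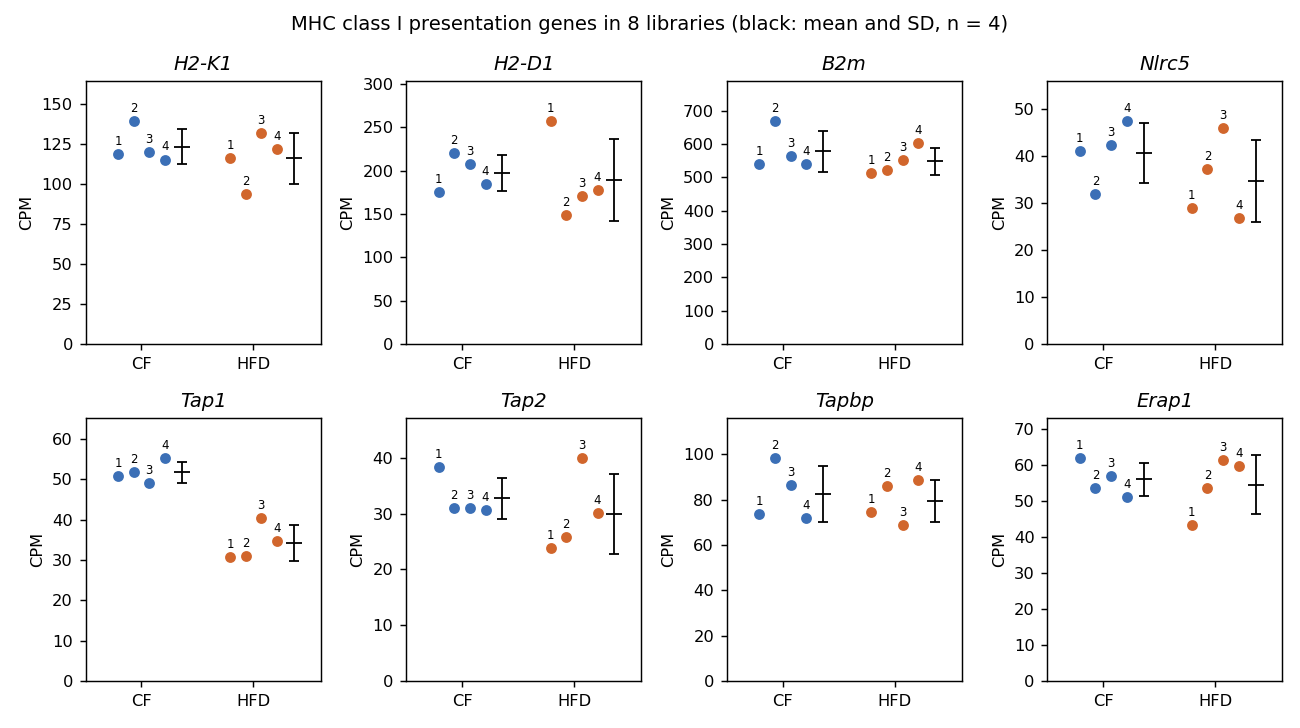
CPM of the 8 class I presentation genes in each library (points, numbered by replicate; axes from 0), by diet, with the mean and SD of 4 replicates in black. In Tap1 the HFD replicates, at 30.7 to 40.4 CPM, sit below the CF replicates, at 49.1 to 55.4 CPM, and in the other genes the diets overlap.

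Tap1, the first subunit of the peptide transporter, had 30.7, 31.1, 40.4 and 34.6 CPM in HFD replicates 1 to 4 and 50.7, 51.9, 49.1 and 55.4 CPM in CF replicates 1 to 4. All 4 HFD values lay under the lowest CF value, as they did in 3.58% of all genes tested. The mean of HFD, 34.2 ± 4.47 CPM (SD, n = 4), was 33.9% lower than that of CF, 51.8 ± 2.65 CPM (SD, n = 4). On the log2 scale HFD minus CF was -0.60 for Tap1 (standard error, SE, 0.11, 95% interval -0.85 to -0.35, edgeR adjusted p = 0.072), which missed the threshold. Tap1 had 957 to 1538 counts per HFD library and 1559 to 2130 per CF library, and the counting error of the lowest was 3.23%. Over 16 alternatives the log2 fold change stayed between -0.69 and -0.41, and the adjusted p went from 0.00019 in DESeq2 to 0.69 with protein-coding genes alone. In that last setting edgeR called 0 of all genes. There Tap1 had -0.64 with an unadjusted p of 0.00034 in edgeR, against 0.00048 in the main analysis. Without HFD replicate 1 the log2 fold change of Tap1 was -0.55 (edgeR, adjusted p = 0.058). Of its exon bases, 3.87% also belong to Psmb9 on the other strand, and the strand setting of the counting is not given in the sources used here.

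Tap2, the partner subunit, had 23.8, 25.9, 40.0 and 30.1 CPM in HFD replicates 1 to 4 and 38.3, 31.0, 31.0 and 30.6 CPM in CF replicates 1 to 4. The highest and the lowest value were both in HFD, and the diets overlapped. On the log2 scale the diets differed by -0.13 (SE 0.17, 95% interval -0.52 to 0.26, edgeR adjusted p = 0.92). Exons of antisense and long non-coding genes on the other strand cover 18.5% of the exon bases of Tap2. The ratio of Tap1 to Tap2 within a library does not depend on scaling between libraries. On the log2 scale this ratio was 0.37, 0.26, 0.012 and 0.20 in HFD replicates 1 to 4 and 0.40, 0.74, 0.66 and 0.85 in CF replicates 1 to 4. The HFD values were all lower, by 0.45 on average. A two-sided exact permutation test gave p = 0.029, the smallest that 4 against 4 allows, and 0.086 after adjustment over the 3 ratios compared. Tap1 counts were thus 1.16 times those of Tap2 in HFD and 1.59 times in CF, without correction for the greater exon length of Tap1. Per kilobase of exon, the mean of Tap1 was below that of Tap2 in HFD (6.24 against 7.92 CPM per kb). In CF it was above that of Tap2 (9.45 against 8.66 CPM per kb). Exon lengths are those of all annotated transcripts merged, 5476 bases in Tap1 and 3781 bases in Tap2. The order of the 2 genes within a diet depends on these lengths.

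Psmb9, which shares its start region with Tap1, had 14.0, 20.8, 21.9 and 22.3 CPM in HFD replicates 1 to 4 and 26.5, 21.3, 15.2 and 21.1 CPM in CF replicates 1 to 4. Here the diets overlapped, and the log2 difference was -0.091 (SE 0.20, edgeR adjusted p = 0.96). The log2 ratio of Tap1 to Psmb9 was 0.58 to 1.13 in HFD and 0.94 to 1.68 in CF, and it overlapped between the diets. This ratio was chosen after its values were seen and was not tested.

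H2-K1 had 116, 93.8, 132 and 122 CPM in HFD replicates 1 to 4 and 119, 139, 119.5 and 115 CPM in CF replicates 1 to 4. The diets overlapped, with the lowest value in HFD replicate 2 and the highest in CF replicate 2. On the log2 scale the diets differed by -0.089 (SE 0.13, 95% interval -0.38 to 0.20, edgeR adjusted p = 0.93). H2-D1 had 257, 149.5, 171 and 178 CPM in HFD replicates 1 to 4 and 175, 221, 208 and 185 CPM in CF replicates 1 to 4. Both extremes were in HFD, the highest in replicate 1 with its many neutrophil reads and the lowest in replicate 2. In H2-D1 the log2 difference was -0.062 (SE 0.18, 95% interval -0.46 to 0.34, edgeR adjusted p = 0.97), and without HFD replicate 1 it was -0.25 (edgeR, adjusted p = 0.41). CDPs had been sorted as cells without lineage markers, and the part of neutrophils in the H2-D1 value was not tested. Class I genes resemble each other, and only uniquely mapped pairs had been counted, so some reads of H2-K1 and H2-D1 may be lost or misplaced. Stretches of 75 bases found in a transcript of another gene made up 3.10% of those of H2-K1 and 5.56% of those of H2-D1.

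B2m had 513, 523, 553 and 601.5 CPM in HFD replicates 1 to 4 and 539, 668, 563 and 540 CPM in CF replicates 1 to 4. The diets overlapped, and CF replicate 2 was the highest. On the log2 scale the diets differed by -0.077 (SE 0.13, 95% interval -0.36 to 0.21, edgeR adjusted p = 0.94). No 75-base stretch of B2m was shared with another gene. The log2 ratio of B2m to the heavy chains (H2-K1 plus H2-D1) averaged 0.86 with an SD of 0.28 in HFD, and 0.85 with an SD of 0.050 in CF, so that the means differed by 0.010. For H2-K1 to H2-D1 the HFD mean was -0.69 with an SD of 0.33 and the CF mean -0.68 with an SD of 0.098. Both differences had p = 0.97 by exact permutation, before and after adjustment. In both ratios HFD replicate 1 was the lowest of the 8 libraries, with 0.46 and -1.15. Without it the difference in the H2-K1 to H2-D1 ratio was 0.15 and no longer below 0 (exact permutation test, adjusted p = 0.17), and that in the ratio of B2m to the heavy chains went from 0.010 to 0.14 (exact permutation test, p = 0.086, adjusted p = 0.13).

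**Figure D2:**
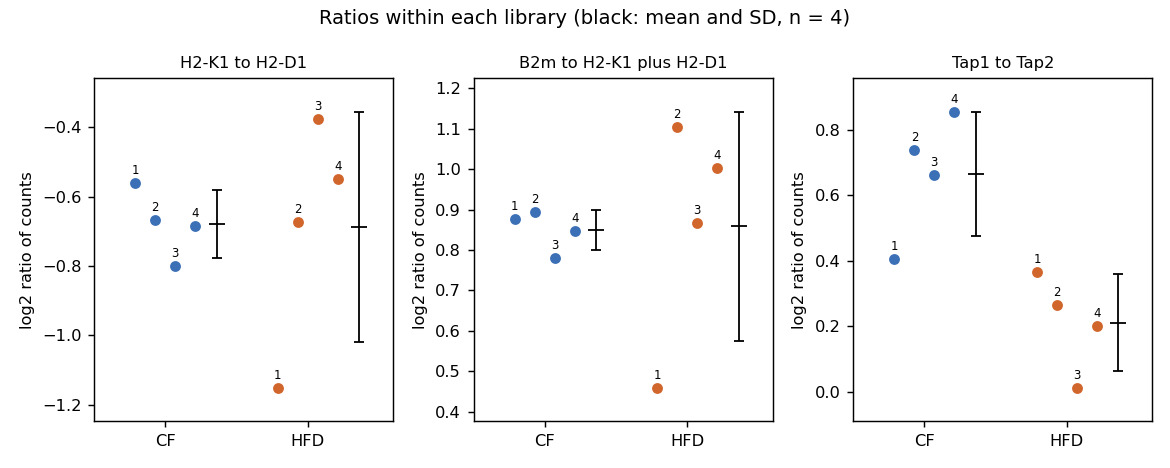
Log2 ratio of counts (2 added to each) within each library (points, numbered by replicate), by diet, with mean and SD of 4 replicates in black. HFD replicate 1 lies lowest in both ratios of heavy and light chains, and the Tap1 to Tap2 ratio is lower in every HFD replicate (0.012 to 0.37) than in every CF replicate (0.40 to 0.85).

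Tapbp had 68.8 to 88.5 CPM in HFD and 71.8 to 98.4 CPM in CF, a log2 difference of -0.055 (SE 0.14, 95% interval -0.36 to 0.25, edgeR adjusted p = 0.96). Exons of Zbtb22 and of an antisense gene cover 29.0% of the exon bases of Tapbp, the highest share among the 8. Erap1 had 43.1 to 61.4 CPM in HFD and 51.1 to 61.9 CPM in CF, a log2 difference of -0.037 (SE 0.13, 95% interval -0.33 to 0.26, edgeR adjusted p = 0.98), and 11.5% of its exon bases lie in exons of Cast on the other strand. In both genes the diets overlapped, and the sign turned without HFD replicate 3 or CF replicate 2 for Tapbp (0.0076 and 0.040), and without HFD replicate 1 or CF replicate 1 for Erap1 (0.060 and 0.016).

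Nlrc5 had 29.0, 37.2, 45.9 and 26.8 CPM in HFD replicates 1 to 4 and 41.0, 32.0, 42.4 and 47.4 CPM in CF replicates 1 to 4. The lowest 2 values were in HFD and the highest in CF, but the groups overlapped. HFD minus CF was -0.23 on the log2 scale (SE 0.19, 95% interval -0.66 to 0.20, edgeR adjusted p = 0.84), and it stayed below 0 in all 16 alternatives, from -0.39 to -0.045.

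**Figure D3:**
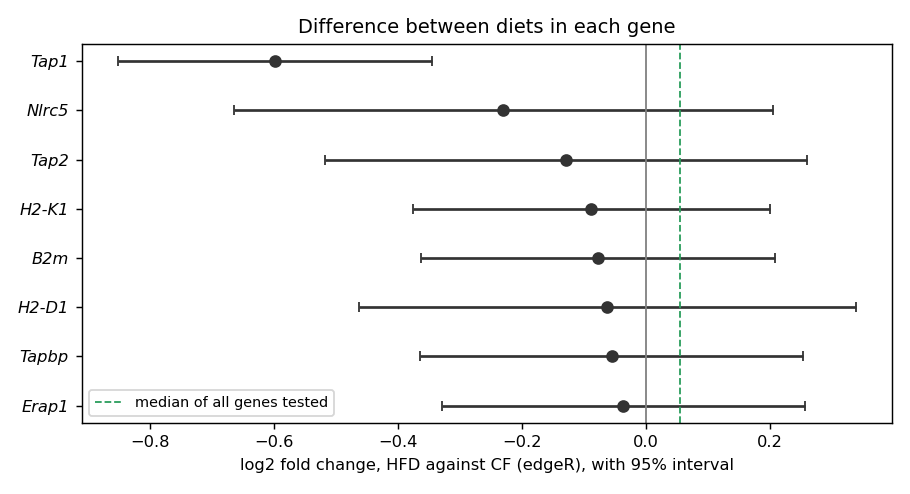
Log2 fold change of each gene, HFD against CF, from edgeR (points) with its 95% interval (bars); the dashed line is the median of all genes tested, 0.055. The interval of Tap1, -0.85 to -0.35, leaves out 0, and those of the other 7 genes include it.

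Per kilobase of exon, B2m was the most abundant of the 8, at 637 ± 46.2 CPM per kb (SD, n = 4) in HFD and 672 ± 71.5 in CF. It was followed by H2-D1 (73.3 ± 18.2 in HFD, 76.5 ± 8.09 in CF), H2-K1 (39.4 ± 5.48 and 41.9 ± 3.67) and Tapbp (21.9 ± 2.58 and 22.8 ± 3.43). These 4 levels did not overlap with their neighbours over the 8 libraries. Tap2, Tap1 and Erap1 followed close together, with means over all libraries of 8.29, 7.85 and 7.58 CPM per kb and overlapping ranges, and Nlrc5 was the lowest, at 4.44 CPM per kb and apart from Erap1. Per kilobase, Tap1 was above Tap2 in the CF mean (9.45 ± 0.48 against 8.66 ± 0.99) and in 3 of 4 CF libraries, replicate 1 being the exception, and below it in the HFD mean (6.24 ± 0.82 against 7.92 ± 1.91) and in 4 of 4 HFD libraries. On the TMM scale HFD replicate 1 had the lowest value of the 8 libraries in Tap1, Tap2, B2m and Erap1, and CF replicate 2 the highest of H2-K1, B2m and Tapbp.

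Genes that work beside the 8 were taken from lists written from general knowledge. Of any of these lists 0 genes were called by edgeR, which called 0.423% of all genes tested. Of 17 other class I heavy chain genes, 11 were tested, 5 above and 6 below 0, with a median log2 fold change of -0.0078. In edgeR 0 had an unadjusted p below 0.05 (8.56% of all genes). H2-Q1 and H2-Q2 were under the filter, and H2-T3, H2-M2, H2-M5 and H2-M9 were not analysed here. The lowest p among the tested were those of H2-T23 (Qa-1), at 0.17 (edgeR, adjusted p = 0.80), and H2-Q10, with -0.77 (edgeR, adjusted p = 0.88). H2-Q10 had 1.31 to 15.3 CPM in HFD and 3.18 to 13.4 CPM in CF, so the diets overlapped. The immunoproteasome and PA28 list, which supplies peptides, had 4 of 5 genes above 0 and a median of 0.12, with 0.13 in both Psme2 and Psmb10 (edgeR, adjusted p = 0.89 and 0.90).

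Among 4 loading partners in the ER, 3 were above 0, with a median of 0.041. Canx (calnexin) had 0.072 and Tapbpl, a tapasin relative, -0.12 (edgeR, adjusted p = 0.93 for both). Of 7 cytosolic peptidases 6 were tested, Nrdc not being analysed here, and 4 were above 0, with a median of 0.058. Lap3 had 0.16 and Tpp2 0.11 (edgeR, adjusted p = 0.81 and 0.84). None of these genes had an unadjusted p below 0.05 in edgeR, against 8.56% of all genes in either direction.

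The 14 factors that bind class I promoters split evenly, 7 above and 7 below 0, with a median of -0.0074, and 1 in each direction had an unadjusted p below 0.05, near the share of all genes (5.34% lower and 3.22% higher). Rfx5, a subunit of the RFX complex on the X box of class I and class II promoters, had 7.13, 5.13, 6.74 and 8.42 CPM in HFD replicates 1 to 4 and 18.3, 10.1, 12.4 and 10.6 CPM in CF replicates 1 to 4. All HFD values were below all CF values, and they differed by -0.90 on the log2 scale (SE 0.23, edgeR adjusted p = 0.16). Nfyb, a subunit of the CCAAT-binding factor NF-Y, had 17.7 to 24.5 CPM in HFD and 15.2 to 19.2 CPM in CF, with 0.34 (SE 0.14, edgeR adjusted p = 0.50). Of 11 interferon receptor and signalling genes, 7 were above 0, with a median of 0.069, and 1 was lower with an unadjusted p below 0.05, near the share of all genes (5.34%). Tyk2, a kinase at the type I interferon receptor, had 28.8 to 31.6 CPM in HFD and 33.6 to 37.9 CPM in CF, without overlap (3.58% of all genes, as for Rfx5), with -0.26 (SE 0.086, edgeR adjusted p = 0.34), and Ifnar1 had 0.23 (adjusted p = 0.76).

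**Figure D4:**
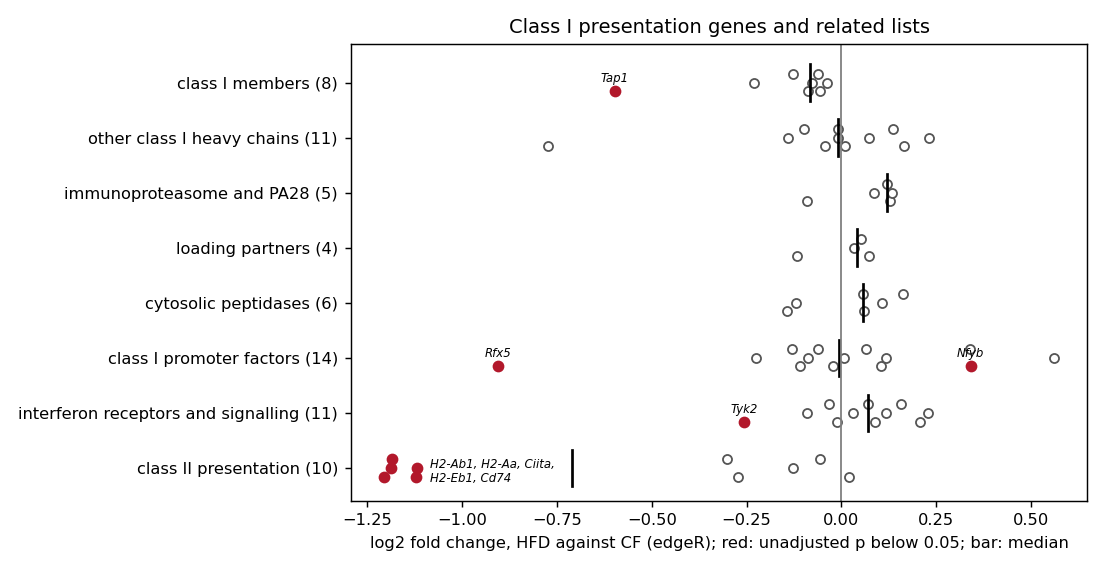
Log2 fold change, HFD against CF, of every tested gene in the class I genes and 7 related lists (number tested in parentheses). The median is shown as a bar. Red points have an unadjusted p below 0.05 in edgeR, and none is called after adjustment (0.423% of all genes tested are). The class I median is -0.083 and the class II median -0.71.

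Class II genes present material taken up from outside to CD4+ T cells. Of 10 tested, 9 were below 0 (40.3% of all genes), with a median log2 fold change of -0.71 against -0.083 for class I, and 5 were lower with an unadjusted p below 0.05 in edgeR (5.34% of all genes). The difference between the lists was not tested. Ciita, the class II counterpart of Nlrc5, had 7.61, 13.0, 20.1 and 13.5 CPM in HFD replicates 1 to 4 and 36.4, 34.0, 27.6 and 25.4 CPM in CF replicates 1 to 4. All HFD values were below all CF values, as in 3.58% of all genes tested. The diets differed by -1.18 on the log2 scale (SE 0.27, edgeR adjusted p = 0.12). Cd74, the invariant chain, had 98.4 to 208 CPM in HFD and 230 to 520 CPM in CF, also without overlap. Its log2 difference was -1.12 (SE 0.30, edgeR adjusted p = 0.18).

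Markers of other cell types were read in the same libraries. The summed level of 5 plasmacytoid DC markers was 169 to 391 CPM in HFD and 175 to 222 CPM in CF, with an unadjusted p below 0.05 in 4 of 5 (3.22% of all genes; edgeR, all higher in HFD, lowest adjusted p = 0.14). The 5 B cell markers summed to 31.7 to 90.1 CPM in HFD and 39.6 to 62.3 CPM in CF, and had fold changes above 0 in 5 of 5 with a median of 0.88, 3 of them higher in HFD with an unadjusted p below 0.05 in edgeR (3.22% of all genes, lowest adjusted p = 0.17). For 6 conventional DC markers the sums were 69.8 to 184 CPM in HFD and 120 to 154 CPM in CF. Their fold changes were below 0 in 5 of 6 (40.3% of all genes), with a median of -0.43. None had an unadjusted p below 0.05 in edgeR (8.56% of all genes). For 6 monocyte and macrophage markers the sums were 107 to 270 CPM in HFD and 183 to 279 CPM in CF. Here 4 of 6 were below 0 (40.3% of all genes), with a median of -0.092. Again none had an unadjusted p below 0.05 in edgeR (8.56% of all genes). The 4 T and NK cell markers analysed summed to 8.62 to 29.3 and 11.1 to 20.2 CPM, with Cd3e at 0 in HFD replicate 3 and CF replicate 1, and Cd3d at 0 in CF replicate 1. Of the 3 T and NK cell markers tested, 1 was above 0, with a median of -0.087. Neutrophil markers were above 0 in 8 of 8, with a median of 0.34, and erythroid markers in 4 of 4, with a median of 0.93. Of all genes, 40.3% were below 0. Both lists had their highest sum in HFD replicate 1, and none of their genes had an unadjusted p below 0.05 in edgeR (8.56% of all genes). In the other HFD replicates the neutrophil markers summed to 884 to 3342 CPM, against 1800 to 6119 CPM in CF. In the same replicates the erythroid markers summed to 38.1 to 58.0 CPM, against 36.4 to 57.25 CPM in CF. CDPs had been sorted without lineage markers, and the part of these cell types in the Tap1 difference was not tested.

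The mean profile of the 8 genes, each centred on its own mean, ranged from -0.18 in HFD replicate 2 to 0.13 in CF replicate 2 on the log2 scale. B2m and H2-K1 kept closest to it, each with a root mean square difference of 0.11 over 8 libraries, and Nlrc5, H2-D1 and Tap1 were farthest, at 0.26, 0.25 and 0.23. Among 14880 other genes that varied at least as much as the profile, those with the smallest difference from it were AI506816 (0.047), Tob2 (0.050), Lrrcc1 (0.065), Brd2 (0.075) and Emb (0.077). Their log2 fold changes ran from -0.26 to -0.13, with adjusted p of 0.49 to 0.82 in edgeR. These genes were picked for nearness to a profile that was on average lower in HFD, so fold changes below 0 followed from the choice.

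**Figure D5:**
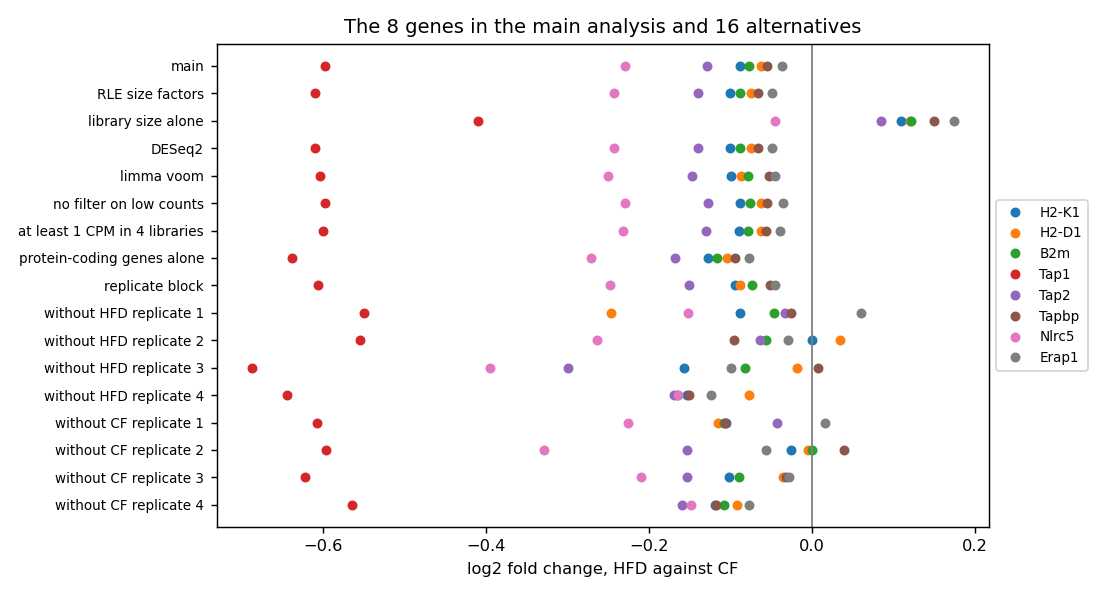
Log2 fold change of each of the 8 genes, HFD against CF (horizontal axis), in the main analysis and 16 alternatives (vertical axis). Tap1 lies between -0.69 and -0.41 in every setting, and library size alone moves all 8 genes to the right, as it moves the median of all genes from 0.055 to 0.25.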

How the data were processed

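RNA of sorted CDPs was analysed in 8 libraries, 4 HFD and 4 CF. The deposited counts per gene are raw: per the labels and the methods of the study, the authors trimmed reads with cutadapt, aligned them with HISAT2 to GRCm38, kept uniquely mapped pairs and counted with StringTie on GENCODE genes. Versions, annotation release and strand setting are not given in the sources used here. Columns were matched to samples by the sample number at the end of their names. Identifiers were named by GENCODE vM21 (GRCm38), in which 16067 of 16119 were found.

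Counts were filtered (filterByExpr), scaled by TMM and compared by the robust quasi-likelihood test of edgeR 4.0.16 in R 4.3.3 with diet as the only term, in place of the study's Ballgown, with Benjamini-Hochberg adjustment over all 15837 genes tested and a threshold of 0.05. Standard errors were the fold change over the root of F. Ratios were tested by exact permutation over 70 splits, with a prior count of 2. Alternatives were other scalings (RLE factors, or library size without factors), other tools (limma voom 3.58.1, DESeq2 1.42.0), other filters (none, or 1 CPM in 4 libraries), protein-coding genes alone, a block for the replicate number, and leaving out single libraries in turn. An exact test of Tap1 was added after seeing the data. Figures were drawn with matplotlib 3.10.9.

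Named are the 8 genes, the 2 members of each related list with the lowest p, and the 5 genes nearest to the mean profile. Psmb9 and single markers of the sort or of other cells were chosen with their values in view. The 8 genes, 7 related lists and 8 marker lists were chosen with earlier results of these data known.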

Additional observations from a re-analysis of the deposited data

Results flagged for a closer look

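Of 22 groups of 4 replicates looked at (the 8 genes and 3 ratios in each diet), 1 held a replicate far from the other replicates of its diet, and chance gives about 1 in 20. It was Tap2 in CF replicate 1, with 38.3 CPM against 30.6 to 31.0 CPM in the other CF replicates. The log2 fold change of Tap2 without this library was -0.043 (edgeR, adjusted p = 0.998), against -0.13 with it.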

How the results depend on the processing

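The difference in Tap1 stayed below 0 in all 16 alternatives, from -0.69 to -0.41, and was called only by DESeq2 (-0.61, adjusted p = 0.00019), so the number of genes called of the 8 was 1 there and 0 elsewhere. The cause was not tested. An exact permutation test of its log2 CPM, added after seeing the data, gave -0.61 (p = 0.029, the smallest for 4 against 4). The diets had already been seen not to overlap in Tap1, which fixes this p, so the test adds nothing to that. With library size alone the signs of 6 genes turned, to 0.11 in H2-K1, 0.12 in H2-D1, 0.12 in B2m, 0.085 in Tap2, 0.15 in Tapbp and 0.17 in Erap1, and the median of the 8 moved from -0.083 to 0.12, while that of all genes went from 0.055 to 0.25. With each library left out, H2-K1 ranged from -0.16 to 7.3e-06 (without HFD replicate 2), H2-D1 from -0.25 to 0.035 (without HFD replicate 2), B2m from -0.17 to 0.00063 (without CF replicate 2), Tap1 from -0.69 to -0.55, Tap2 from -0.30 to -0.033, Tapbp from -0.15 to 0.040, Nlrc5 from -0.39 to -0.15 and Erap1 from -0.12 to 0.060. The median of the 8 ranged from -0.16 to -0.040. The ratio of H2-K1 to H2-D1 ranged from -0.11 to 0.15 (above 0 without HFD replicate 1 or CF replicate 1), that of B2m to the heavy chains from -0.072 to 0.14 (below 0 without HFD replicate 2, HFD replicate 4 or CF replicate 3) and that of Tap1 to Tap2 from -0.54 to -0.39.

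Same-numbered replicates did not deviate together (r from -0.44 to -0.078, across genes, which are not independent), and 0 of 8 libraries were closest to their own number. This check cannot show whether same-numbered replicates shared a preparation or a sort, and the labels give them only a number in common. With the replicate number as a block, Tap1 had -0.61 (edgeR, adjusted p = 0.54), and the count of all genes called went from 67 to 0. Over all genes, 567 were called by DESeq2 and 108 with library size alone, and edgeR called 0 with protein-coding genes alone and without HFD replicate 3, CF replicate 1, 2 or 3, 1 without HFD replicate 2, 2 without HFD replicate 4, 154 without CF replicate 4 and 200 without HFD replicate 1. The lowest Tap1 count, 957, limits its precision to 3.23% by counting alone.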
